A study of Drosophila melanogaster with 16 samples.

Results

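The comparison described here is that of Drosophila Kc cells in which the Notch receptor had been activated with control Kc cells. It comprised the 6 arrays whose labels name it, out of 16 array columns in the series, and was followed across all genes on the array. Kc is an established line from Drosophila embryos that carries features of blood cells. Activated cells were kept for 30 minutes with 2 mM EDTA, which binds calcium and other divalent metal ions, in PBS, and control cells received PBS alone. Both were otherwise treated alike: they grew at 25 °C in medium with 10% fetal calf serum and 10 µg/ml insulin, and were replated 12 to 18 hours before activation. Activation by EDTA is not specific to Notch, and no Kc cells given EDTA with a blocked Notch pathway were analysed here, so the effect of Notch and any other effect of EDTA cannot be told apart.

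Notch is a surface receptor. When its outer part is lost, which binding of a ligand or removal of calcium by a chelator can bring about, a protease complex that contains presenilin frees its inner part. The freed fragment enters the nucleus, joins the DNA-binding protein Su(H) and the coactivator Mastermind, and switches on target genes within minutes. The best known targets in Drosophila are the genes of the Enhancer of split complex, E(spl), which code for repressors of the basic helix-loop-helix (bHLH) family and for small Bearded-type proteins. In the blood lineage Notch is known for directing the choice of crystal cell fate.

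Each array gave 1 log ratio per probe, with activated RNA in Cy5 on arrays 1 to 3 and in Cy3 on the dye swaps, arrays 4 to 6. The labels state 3 biological replicates with dye swaps and do not say which swap repeats which RNA. A positive value is read as higher in activated cells. No label gives this direction; it is the likely one, given the dye order of the labels and the known induction of E(spl) genes by Notch. Values are called log ratios, because a base of 2 is probable but a natural log could not be told apart. The effect of a gene is the mean of the 2 dye orientations with equal weight, given ± a standard error. The error comes from averages of 1 array with 1 swap, 3 of them where all 6 arrays had a value and fewer otherwise. Genes had values on 6 arrays unless fewer are named.

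Ratios were present for 13616 to 15638 of 17258 probes per array (78.9% to 90.6%), with medians from -0.08 to 0.16. The dye left a mark as large as the response across all genes. Over 11107 features with a value on every array, where a feature is a named gene or a single unnamed probe, the mean of the 2 orientations had an SD of 0.23 and their dye-dependent part an SD of 0.24. Arrays of the same orientation correlated at 0.599 on average and arrays of opposite orientation at -0.013. These correlations are across genes, and arrays of the same orientation share the placing of the dyes. The swaps were taken as already turned by the authors, because the largest ratios kept their sign over the orientations, as E(spl)mbeta-HLH did with 4.55 or more on each array. Ratios carry no level, so the cell type could be checked only by which markers gave values. Of 10 plasmatocyte markers named on the array 8 had a value on at least 5 arrays, among them Hml, Pxn and crq, as did 0 of 3 crystal cell, 1 of 3 lamellocyte, 2 of 3 muscle and 2 of 3 neural markers. Of all 11908 named genes on the array 8188 did (68.8%), so having a value does not tell the plasmatocyte markers apart from other genes.

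Of 12167 tested features, 8188 of them named genes, 371 were higher in activated cells (3.05%) and 185 were lower (1.52%). A feature was called when limma gave an adjusted p under 0.05 with the same sign for all 6 ways of assigning swaps to biological replicates. Each error, unadjusted p and adjusted p of this test below is the largest of the 6, unless stated otherwise. Most large changes were upward: 40 features were higher by more than 1 log unit and 4 were lower by more than 1, and beyond 2 log units there were 6 higher and 0 lower features. The median effect was 0.58 among higher features and -0.52 among lower ones, against 0.013 over all tested features. Of the 556 called features 485 had the same sign on every array with a value. The higher group held 303 named genes and 68 unnamed probes, and the lower group 173 named genes and 12 unnamed probes. Genes known only by a CG number made up 97 of the higher and 85 of the lower named genes. Each count of called list members below is to be set beside the 3.05% higher and 1.52% lower over all tested features. The lists were chosen with earlier results of these data known, so a larger share in a list is a description and no independent support.

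**Figure D1:**
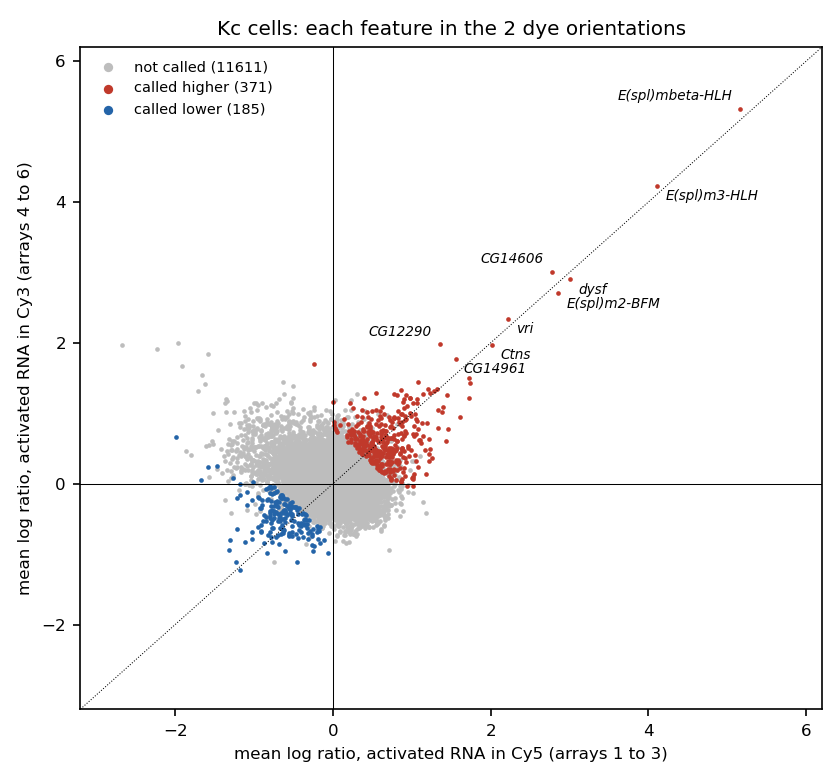
Mean log ratio of each of 12167 features with activated RNA in Cy5 (horizontal axis) and in Cy3 (vertical axis), each over up to 3 arrays; the dotted line marks equal values. The named genes at the upper right have like values in both orientations, while the grey cloud leans toward opposite signs, and 58.8% of the 11107 features with all 6 values had opposite signs in the 2 orientations.

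The E(spl) bHLH genes gave the largest ratios of the comparison. They encode repressors that act downstream of Notch, often on genes of the neural and muscle fates. Of 4 tested members 3 rose, with a median of 2.69 for the list. E(spl)mbeta-HLH had log ratios of 6.09, 4.66, 4.75, 6.51, 4.55 and 4.92 on arrays 1 to 6. It was the highest feature on every array, and arrays 1 and 4 stood above the other 4. Its effect was 5.25 ± 0.24 (limma, adjusted p = 0.00463). E(spl)m3-HLH had 4.30, 4.11, 3.92, 4.55, 4.05 and 4.10 on arrays 1 to 6, a tight set around an effect of 4.17 ± 0.11 (adjusted p = 0.000277). E(spl)m7-HLH had 0.85, 1.44, 1.13, 0.67, 1.51 and 1.66, with arrays 1 and 4 lowest, and an effect of 1.21 ± 0.14 (adjusted p = 0.0155). E(spl)mdelta-HLH differed from its relatives: its values ran from -0.19 to 0.67 with a median of 0.19, it was negative on array 4, and its effect of 0.22 ± 0.11 did not pass the test (adjusted p = 0.328). E(spl)m5-HLH had a value on 3 arrays and was not tested, and E(spl)mgamma-HLH and E(spl)m8-HLH were not named on this array.

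The complex lies on chromosome arm 3R, where the bHLH genes alternate with genes for Bearded-type proteins, which temper Notch signalling by acting on ligand trafficking. Of 4 tested genes in the list of Bearded-type and other complex genes 1 rose. E(spl)m2-BFM had 2.05, 3.27, 3.25, 2.19, 3.27 and 2.66 on arrays 1 to 6 and an effect of 2.78 ± 0.18 (adjusted p = 0.00977). It too was lowest on arrays 1 and 4. E(spl)malpha-BFM was positive on all 5 arrays with a value, from 0.13 to 1.40 with a median of 1.06, and its effect of 0.83 ± 0.26 did not pass (adjusted p = 0.138). In a limma fit of separate arrays it passed as higher (adjusted p = 0.0314). E(spl)m6-BFM, with 5 arrays and an effect of 0.21 ± 0.14, and groucho (gro), the corepressor at the end of the complex, with 0.19 ± 0.11, did not pass (adjusted p = 0.588 and 0.439). E(spl)m4-BFM had 3 arrays, Kaz-m1 and Tom had 4, Ocho had 2 and Brd had 0, so they were not tested. Along the chromosome malpha-BFM and the untested Kaz-m1 lie between the called mbeta-HLH and m2-BFM. The untested m4-BFM and m5-HLH and then m6-BFM lie between the called m3-HLH and m7-HLH. With members untested and malpha-BFM positive on all its arrays, whether the response has gaps along the complex cannot be told.

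**Figure D2:**
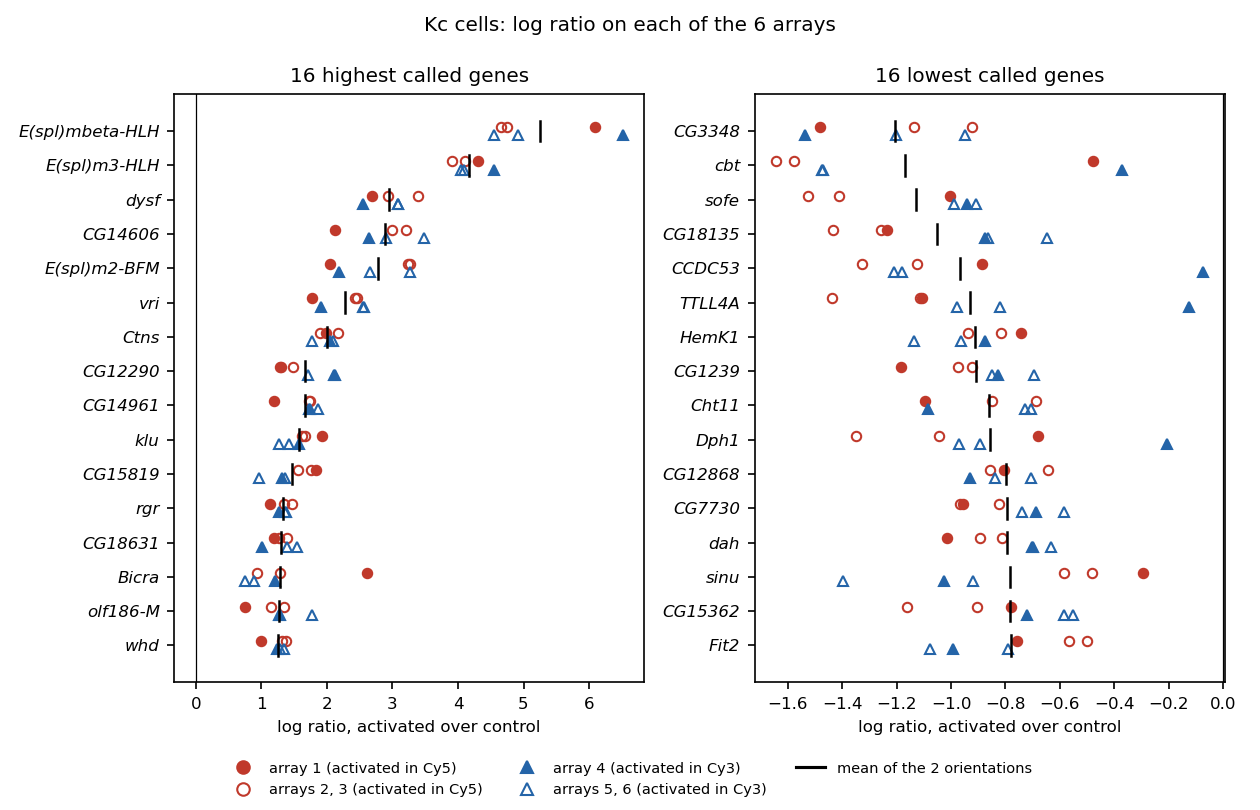
Log ratio on each of the 6 Kc arrays (horizontal axis) for the 16 highest and the 16 lowest called genes, taken among those of 1 sign on all arrays; red circles have activated RNA in Cy5, blue triangles in Cy3, filled symbols are arrays 1 and 4, and black bars are the mean of the 2 orientations. E(spl)mbeta-HLH is highest on arrays 1 and 4, whereas E(spl)m2-BFM and vri are lowest there, and cbt is closest to 0 there.

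Outside the complex, genes reported elsewhere as Notch targets were mostly transcription factors. Of 10 tested members of that list 4 rose, beside 3.05% of all tested features, and the list's median was 0.12. As this list too was chosen with earlier results of these data known, its share does not test for enrichment. dysf, a bHLH-PAS factor known from tracheal fusion cells, had 2.69, 2.93, 3.39, 2.55, 3.08 and 3.08 on arrays 1 to 6. All 6 values lay within 1 log unit, and the effect was 2.95 ± 0.13 (adjusted p = 0.00108). klu, which encodes the zinc finger factor Klumpfuss, lay between 1.28 and 1.92 with a median of 1.60 and an effect of 1.58 ± 0.11 (adjusted p = 0.00463). peb, the zinc finger factor Hindsight, ran from 0.21 to 1.45 with a median of 0.90 and rose by 0.85 ± 0.15 (adjusted p = 0.0291). With activated RNA in Cy3 alone peb no longer passed. zfh1, a zinc finger and homeodomain repressor, ran from 0.49 to 1.09 with a median of 0.76 and rose by 0.77 ± 0.12 (adjusted p = 0.0176). The other 6 tested members, among them cut (ct) at -0.03 and vestigial (vg) at 0.01 with 5 arrays, did not pass.

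Among components of the pathway itself, effects ran from -0.37 to 0.58. Of 14 tested components 1 rose, the coactivator mastermind (mam), by 0.58 ± 0.11 (adjusted p = 0.0362), with values from 0.05 to 0.97 and a median of 0.63. It averaged 0.31 in Cy5 and 0.85 in Cy3, and did not pass in Cy5 alone. The median of this list was 0.08, and 3.05% of all tested features were higher. The corepressor Hairless (H) stood at 0.13, presenilin (Psn) at -0.01 and the protease kuz at 0.35, none of which passed.

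The remaining genes at the top had varied functions. CG14606 had 2.13, 2.99, 3.20, 2.64, 2.90 and 3.48 on arrays 1 to 6 and an effect of 2.89 ± 0.16 (adjusted p = 0.00183). vri, whose bZIP protein represses Clock in the daily cycle, had 1.77, 2.46, 2.43, 1.91, 2.55 and 2.57, with arrays 1 and 4 lowest, and an effect of 2.28 ± 0.14 (adjusted p = 0.00463). Ctns, which encodes the lysosomal cystine transporter cystinosin, stayed between 1.77 and 2.17 with a median of 2.02 and an effect of 2.00 ± 0.11 (adjusted p = 0.00463). The next 9 named genes, klu among them, lay between 1.67 and 1.26. The other 8 were CG12290, CG14961, CG15819, CG18631, rgr and olf186-M, the SWI/SNF subunit gene Bicra, and whd, which encodes the mitochondrial carnitine palmitoyltransferase. Bicra read 2.62 on array 1 and 0.75 to 1.28 on the other 5 arrays. The mbeta-HLH, m3-HLH and m2-BFM genes of the complex, dysf, CG14606 and vri were also the 6 of 76 called named genes that stayed called when any 1 array was left out, a setting that leaves only 2 averages to test.

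In the clock and bHLH-PAS list 2 of 14 tested members rose, vri and its partner gene Pdp1, a bZIP activator. Pdp1 ran from 0.59 to 1.39 with a median of 0.74 and rose by 0.85 ± 0.13 (adjusted p = 0.0127). The median of that list was 0.19, and 3.05% of all tested features were higher. The clock repressors per at 0.20 and tim at -0.24 did not pass. Of the 2 nearest genes on either side of dysf, CG14606 and vri that were tested, only Cipc beside dysf was called, with 0.66 (adjusted p = 0.0127). Across the genome, 34 of 379 tested neighbours of higher genes were higher too (8.97%), against 379 of 10546 neighbours of all tested genes (3.59%). Here and for the lower genes, a pair of like calls enters from both sides, so there are fewer pairs than counts. E(spl)m2-BFM and E(spl)m3-HLH are such a pair. Near-identical copies, which can share hybridisation, were not removed. Among neighbours of lower genes 8 of 259 were lower (3.09%), against 2.46% for all genes.

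Among the lower genes CG3348 was lowest with -1.20 ± 0.12 (adjusted p = 0.00617), and its values ran from -1.54 to -0.92 with a median of -1.17. cbt, which encodes the zinc finger factor Cabut, had -0.48, -1.64, -1.58, -0.37, -1.47 and -1.47 on arrays 1 to 6. Arrays 1 and 4 again stood apart, here closer to 0, and the effect was -1.17 ± 0.18 (adjusted p = 0.0198). sofe fell by 1.13 ± 0.11 and CG18135 by 1.05 ± 0.10 (adjusted p = 0.00977 for both). The other 12 of the 16 lowest genes lay between -0.97 and -0.78. Among them were CCDC53, named for a subunit of the WASH complex, Dph1 of diphthamide synthesis, Cht11 of the chitinase family, sinu, a claudin-type protein of septate junctions, and Fit2, a kindlin of integrin adhesions. CCDC53 read -0.07 on array 4 and -1.33 to -0.89 on the other 5, and TTLL4A, of the tubulin ligase family, read -0.13 on array 4. CCDC53 and TTLL4A did not pass with activated RNA in Cy3 alone.

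Arrays 1 and 4 differed from the rest in a share of the response. Among 370 higher features with 6 values, both arrays lay above the other 4 in 77 (20.8%), E(spl)mbeta-HLH included, and below them in 37 (10.0%), among them E(spl)m2-BFM, E(spl)m7-HLH and vri. Over all 11107 features the shares were 6.84% and 9.22%, so among higher features only the share above stood apart. For arrays 3 and 6 the shares were 3.51% above and 8.92% below among higher features, against 8.5% and 3.48% over all features. For arrays 2 and 5 they were 6.49% and 4.59%, against 3.24% and 9.82%. Among 182 lower features arrays 1 and 4 were above the other 4 in 6 (3.3%) and below them in 24 (13.19%). Over all features these shares were 6.84% and 9.22%. The deviations of arrays 1 and 4 from their orientation means correlated at 0.469 across features, those of 2 and 5 at 0.341 and those of 3 and 6 at 0.286, and all other pairs were negative, which is a description across genes with no test. Deviations of the 3 arrays of an orientation cancel out by construction. Negative values within an orientation, and beside a positive pair across orientations, are therefore in part built in.

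In the EGF receptor list 3 of 15 tested genes rose and 1 fell, with a median of 0.22, beside 3.05% of all features higher and 1.52% lower. The 3 that rose are known to restrain the pathway. Other members did not pass, among them the inhibitor genes aos at 0.24 and sty at -0.002 and the ubiquitin ligase gene Cbl at 0.12. The Ets repressor gene aop rose by 0.68 ± 0.11 (adjusted p = 0.0153), the ERK phosphatase gene Mkp3 by 0.63 ± 0.11 (adjusted p = 0.0288) and kek1, a transmembrane inhibitor of the receptor, by 0.43 ± 0.10 (adjusted p = 0.0325). The values ran from 0.37 to 0.94 for aop, 0.41 to 0.76 for Mkp3 and 0.08 to 0.75 for kek1, and all were positive. Dsor1, the MEK kinase, fell by 0.45 ± 0.11 (adjusted p = 0.0333). kek1 did not pass in Cy5 alone and Dsor1 not in Cy3 alone. Egfr itself at 0.22 and the ligand gene spi at -0.19 did not pass.

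In the list of immediate early and JNK genes 4 of 18 tested members rose and 1, cbt, fell, beside 3.05% of all features higher and 1.52% lower. The median was 0.18. puc, the phosphatase that JNK induces and that switches JNK off, ran from 0.50 to 0.94 with a median of 0.74 and rose by 0.76 ± 0.11 (adjusted p = 0.0142). Atf3, a bZIP factor, rose by 0.70 ± 0.12 (adjusted p = 0.0165), Gadd45 by 0.62 ± 0.13 (adjusted p = 0.0349) and kay, the fly Fos, by 0.43 ± 0.11 (adjusted p = 0.0393). Gadd45 was -0.07 on array 1 and kay 0.00 there, and both calls were lost in Cy5 alone and when single arrays were left out of the fit of separate arrays. The kinase genes bsk and hep stood at -0.01 and -0.00.

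Among blood cell genes 4 of 18 tested members rose, all encoding transcriptional regulators: peb, zfh1, the GATA cofactor ush and the GATA factor srp. The list's median was 0.19, and over all tested features 3.05% were higher and 1.52% lower. ush ran from 0.35 to 1.03 with a median of 0.73 and rose by 0.74 ± 0.11 (adjusted p = 0.0134), and srp from 0.27 to 0.73 with a median of 0.54 and rose by 0.52 ± 0.10 (adjusted p = 0.0195). srp did not pass in Cy5 alone. The plasmatocyte marker Hml ran from -0.08 to 1.44, and its effect of 0.66 ± 0.16 did not pass (adjusted p = 0.0691). The crystal cell regulator lz had too few values to be tested. In the muscle list 2 of 11 rose, zfh1 and the adhesion gene rst, with a list median of 0.14. Of 7 neural genes 0 passed under limma, and 0 had an unadjusted p under 0.05 or passed in the fit of separate arrays. VGlut, with 5 arrays, was highest with 0.26, and the median was 0.20.

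Members of other signalling lists rose too, beside 3.05% of all features higher and 1.52% lower. In the ecdysone list 3 of 16 rose: Kr-h1, a hormone-responsive zinc finger factor, by 0.88 ± 0.11, br by 0.62 ± 0.10 and the receptor gene EcR by 0.52 ± 0.10 (adjusted p = 0.00998, 0.0131 and 0.0177). The list's median was 0.24. The Dpp and activin list had a median of 0.19, and 4 of its 19 tested genes rose and 1 fell. The type II receptor gene wit rose by 0.99 ± 0.12, bun by 0.52 ± 0.10, the type I receptor gene tkv by 0.51 ± 0.11 and the inhibitory Smad gene Dad by 0.51 ± 0.11, while the BMP ligand gene gbb fell by 0.66 ± 0.10 (adjusted p = 0.0156, 0.0204, 0.0443, 0.034 and 0.0142). tkv read 0.14, -0.03 and 0.68 in Cy5, and it did not pass in Cy5 alone, with the pairs by number as a random block, or when single arrays were left out of the fit of separate arrays. Dad showed a dye pattern, with 0.80 to 1.06 in Cy5 and -0.18 to 0.36 in Cy3, and did not pass in Cy3 alone or after the arrays were centred and scaled. In the JAK/STAT list, with a median of 0.28, 2 of 10 rose, the repressor gene ken by 0.51 ± 0.10 and the STAT factor Stat92E by 0.47 ± 0.10 (adjusted p = 0.0231 and 0.0238). Stat92E did not pass in Cy5 alone.

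In the Toll list 2 of 18 rose, with a median of 0.14: cact, the inhibitor of the NF-kappaB factors, by 0.62 ± 0.11 on 6 of 6 arrays, and the receptor gene Tollo by 0.71 ± 0.11, which was negative on array 2 and did not pass in Cy5 alone (adjusted p = 0.015 and 0.0198). The insulin receptor gene InR was the 1 of 14 insulin genes that rose, by 0.62 ± 0.13 (adjusted p = 0.0454), and the list's median was 0.16. The Hedgehog receptor gene ptc was the 1 of 13 Wnt and Hedgehog genes that rose, by 0.56 ± 0.11 (adjusted p = 0.0307), with a median of 0.08. Of 14 cell death genes p53 rose by 0.62 ± 0.16 and Bruce, a large inhibitor of apoptosis protein, by 0.60 ± 0.13 (adjusted p = 0.0491 and 0.0484), with a median of 0.13. p53 read 0.14 and -0.11 on arrays 1 and 4 and 0.73 to 1.09 on the other 4. Both p53 and Bruce lost their calls with the pairs by number as a random block and under robust empirical Bayes, and InR lost its call under robust empirical Bayes and in Cy5 alone. Bruce also failed in Cy5 alone and p53 in Cy3 alone, and both when single arrays were left out as separate arrays.

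**Figure D3:**
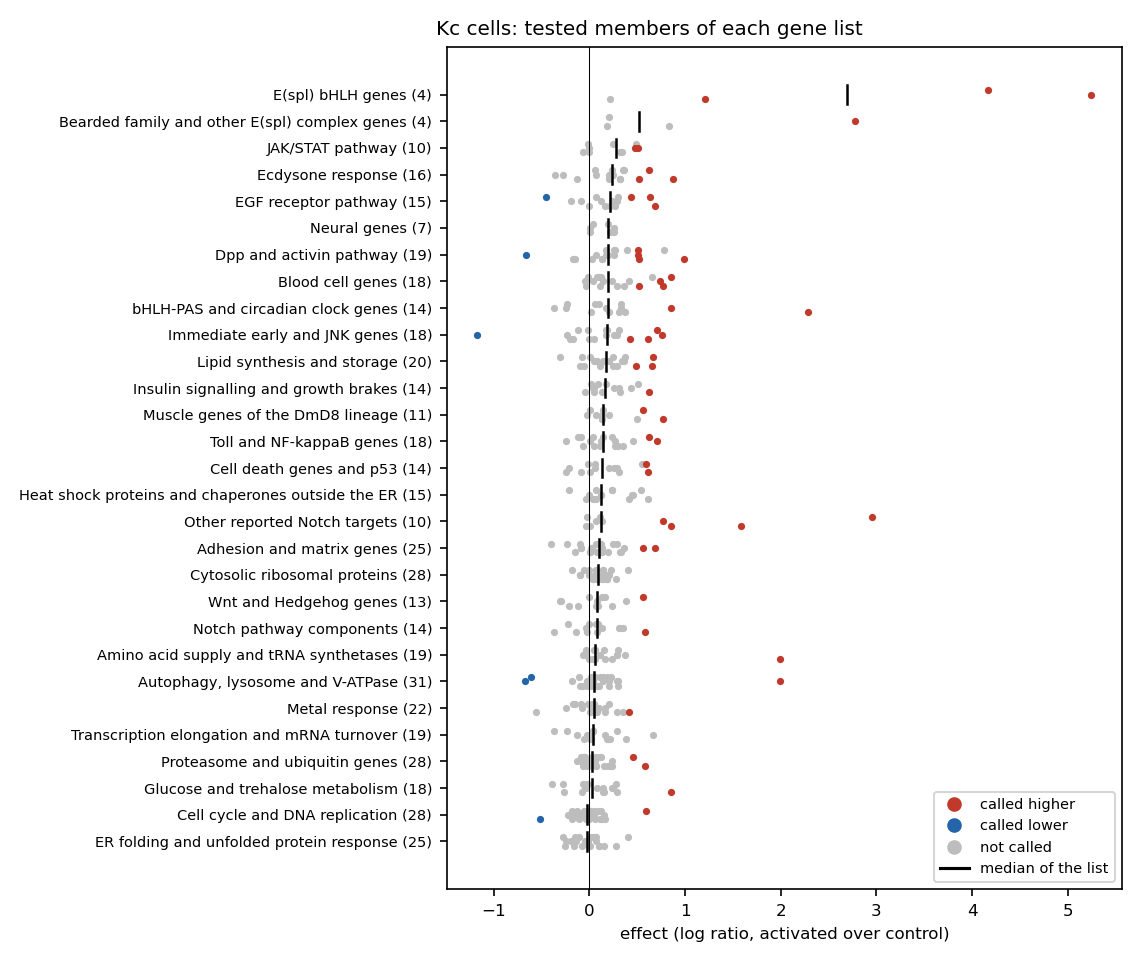
Effect (log ratio, horizontal axis) of each tested member of the 29 gene lists, with the number tested in parentheses; red points were called higher, blue lower, grey not called, and black bars are list medians. The E(spl) bHLH list has a median of 2.69, and the medians of the other lists lie between -0.02 and 0.52.

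Some heat shock genes read higher on arrays 2 and 5, which had been set apart for stress genes beforehand, than on the others. Heat shock genes encode chaperones that cells make in response to heat and other stress. Of 15 tested members 0 passed under limma, 0 had an unadjusted p under 0.05 and 0 passed in the fit of separate arrays. The first 2 counts use the largest p over the 6 assignments of swaps. The smallest adjusted p of limma over these assignments was 0.00809 for Hsp70Ba, 0.0181 for Hsp27 and 0.0262 for Hsp70Ab. For every other tested member it was above 0.05. The list's median effect was 0.12 with all arrays and 0.06 without arrays 2 and 5. Hsp26, a small heat shock protein, read 1.90 on array 2 and 1.92 on array 5, and from -0.27 to 0.14 on the other 4. Hsp27 averaged 1.03 on arrays 2 and 5 and 0.16 on the other 4. Hsp70Ba averaged 1.44, Hsp70Bbb 1.51 and Hsp70Ab 1.31 on arrays 2 and 5, and 0.09, -0.14 and 0.03 on the other 4. The Hsp70 genes are near-identical copies, so their probes may read each other's transcripts. DnaJ-1, a cochaperone, averaged 0.46 on arrays 2 and 5 and 0.13 on the others. In 6 of the 15 genes both arrays lay above the other 4, against 360 of 11107 features overall (3.24%). Because the arrays were set apart beforehand and the Hsp70 copies are not independent, this contrast supports nothing further. The constitutive chaperone gene Hsc70-4 and the chaperonin gene Hsp60A averaged 0.06 and -0.10 on arrays 2 and 5, and 0.07 and -0.27 on the others. The median of the 15 genes was 0.45 on array 2 and 0.16 on array 5, and between -0.05 and 0.02 on the other 4. Without arrays 2 and 5, all 76 called named genes stayed called, and counts stood at 597 higher and 206 lower. That setting leaves fewer assignments of swaps to pass than the 6 of the main rule. Its calls are therefore made more easily and do not show that the arrays are without influence.

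**Figure D4:**
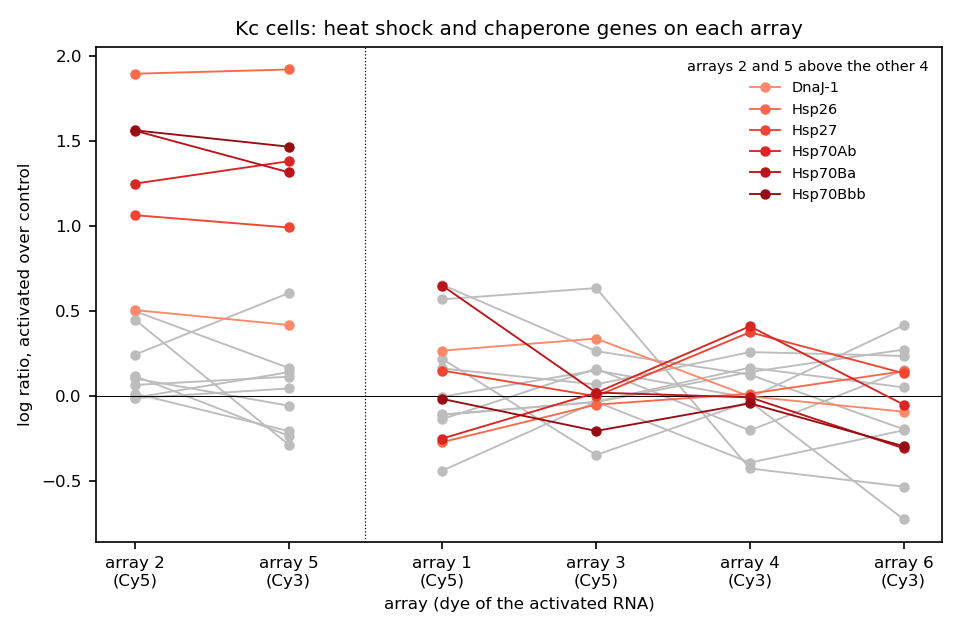
Log ratio (vertical axis) of the 15 tested heat shock and chaperone genes on each Kc array, with arrays 2 and 5 at the left and the dye of the activated RNA in parentheses; lines join the values of a gene within each block of arrays. In red are the 6 genes whose values on arrays 2 and 5 exceed those on the other 4, such as Hsp26 at 1.90 and 1.92 against at most 0.14.

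The lists of other stress, metal and matrix genes, metabolism and general cell functions are likewise to be set beside 3.05% of all features higher and 1.52% lower. Of 25 genes of ER folding and the unfolded protein response 0 passed under limma, though 5 had an unadjusted p under 0.05 and, in the fit of separate arrays, 1 passed as higher (SERCA) and 1 as lower (P58IPK); SERCA, the calcium pump, was highest with 0.41 ± 0.12 (adjusted p = 0.0708), and the median was -0.02. Of 22 metal response genes foi, a zinc transporter of the ZIP family, rose by 0.41 ± 0.11 (adjusted p = 0.0439), with a list median of 0.05. foi read -0.10 to 0.09 in Cy5 and 0.59 to 0.97 in Cy3, did not pass in Cy5 alone, and lost its call with the random block. Of 25 adhesion and matrix genes 2 rose, LanA, a laminin chain, by 0.69 ± 0.15 and rst by 0.56 ± 0.12 (adjusted p = 0.0346 and 0.0241), and the median was 0.10. LanA did not pass in Cy3 alone or when single arrays were left out as separate arrays.

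In lipid genes 3 of 20 rose: mdy, the last enzyme of triglyceride synthesis, by 0.67 ± 0.12, the lipase gene bmm by 0.65 ± 0.11 and the lipoprotein receptor gene LpR2 by 0.49 ± 0.12 (adjusted p = 0.0365, 0.0317 and 0.0465), with a median of 0.17. bmm and LpR2 did not pass in Cy5 alone, and LpR2 also lost its call with the random block and when single arrays were left out as separate arrays. The hexokinase gene Hex-A was the 1 of 18 glucose and trehalose genes that rose, by 0.85 ± 0.11 (adjusted p = 0.0121), all 6 arrays lying between 0.70 and 1.03, and the list's median was 0.03. Ctns was the 1 of 19 amino acid genes and the 1 of 31 lysosome and autophagy genes that rose, with medians of 0.06 and 0.05. Of the lysosome and autophagy genes, Atg12 fell by 0.67 ± 0.11 and Atg13 by 0.61 ± 0.10, on 6 of 6 arrays each (adjusted p = 0.0137 and 0.0142).

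Of 28 cell cycle genes tefu, the ATM kinase, rose by 0.59 ± 0.12 and twe, a Cdc25 phosphatase, fell by 0.52 ± 0.10 (adjusted p = 0.0461 and 0.0177), with a median of -0.02. tefu lost its call once the arrays were centred, in Cy5 alone and when single arrays were left out as separate arrays. Of 28 proteasome and ubiquitin genes 2 rose, cnc, a bZIP factor that controls proteasome and detoxification genes, by 0.58 ± 0.11, and Ubi-p5E by 0.46 ± 0.11 (adjusted p = 0.016 and 0.0492); the median was 0.03. cnc did not pass in Cy5 alone, and Ubi-p5E did not under robust empirical Bayes, in Cy3 alone or when single arrays were left out as separate arrays. Of 28 ribosomal protein genes 0 passed under limma, with 2 at an unadjusted p under 0.05 and 2 passing in the fit of separate arrays, and RpL27 was highest with 0.41 (adjusted p = 0.0551). Of 19 genes of elongation and mRNA turnover 0 passed, with 5 at an unadjusted p under 0.05 and, as separate arrays, 1 passing as higher and 1 as lower, and Not1 was highest with 0.66 (adjusted p = 0.0608). The medians of these lists were 0.09 and 0.04.

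The response of Kc was then set against that of DmD8, a Drosophila line of wing disc origin, in which cells exposed to 2 mM EDTA for 30 minutes were hybridised against a comparison RNA on 5 arrays. Columns labelled as DmD8 control and as DmD8 with the presenilin inhibitor DFK-167 held the same values, so whether the comparison RNA came from untreated or inhibitor-treated cells is not settled. Of 11196 features tested for the difference in limma, called when all 36 pairings passed, 205 had a higher log ratio in Kc (1.83%) and 73 a lower one (0.652%). Of the 342 features higher on activation in Kc that could be tested, 107 had a higher log ratio in Kc than in DmD8 and 0 a lower one. Of the 184 that were lower in Kc, 41 had a lower log ratio in Kc and 2 a higher one. The effect in Kc enters both calls of these counts. Another 96 of the features higher in the difference were not called in Kc.

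The E(spl) genes split between the lines. E(spl)mbeta-HLH had a log ratio of 5.25 in Kc and 0.04 in DmD8, a difference of 5.21 ± 0.41 (adjusted p = 0.00186), and its DmD8 values ran from -0.26 to 0.27. E(spl)m3-HLH had 4.17 in Kc and 1.24 in DmD8, a difference of 2.93 ± 0.21 (adjusted p = 0.00128), and E(spl)m2-BFM had 2.78 in Kc and 1.34 in DmD8, a difference of 1.44 ± 0.28 (adjusted p = 0.0345). E(spl)mdelta-HLH differed in the opposite direction, with 0.22 in Kc and 1.26 in DmD8, a difference of -1.05 ± 0.21 (adjusted p = 0.0443). E(spl)m7-HLH had 1.21 in Kc and 1.25 in DmD8, and its difference of -0.04 ± 0.24 did not pass (adjusted p = 0.924). rgr, with 1.33 in Kc and 1.12 in DmD8, and Mkp3, with 0.63 in Kc and 0.64 in DmD8, did not pass either.

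**Figure D5:**
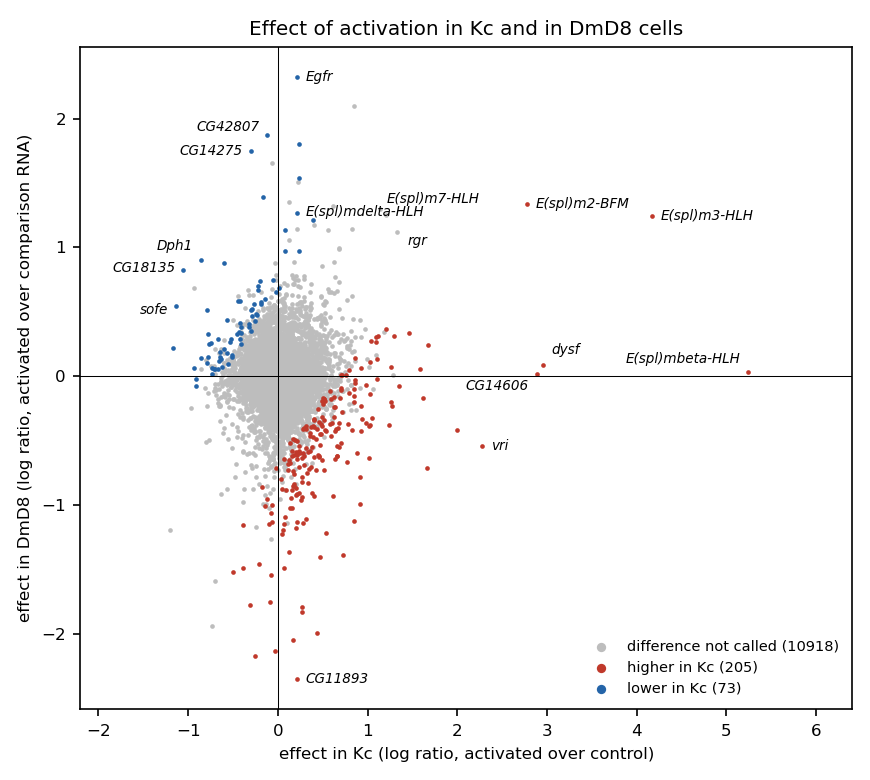
Effect (log ratio) in Kc cells (horizontal axis) and in DmD8 cells (vertical axis) for 11196 features; red points had a called higher difference in Kc (205) and blue points a lower one (73). E(spl)mbeta-HLH, dysf, CG14606 and vri lie far to the right with DmD8 effects between -0.54 and 0.09, and Egfr lies at 0.22 in Kc and 2.32 in DmD8.

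The other named differences rested on a large ratio in Kc, in DmD8 or, with opposite signs, in both. dysf had 2.95 in Kc and 0.09 in DmD8, CG14606 had 2.89 in Kc and 0.02 in DmD8, and vri had 2.28 in Kc and -0.54 in DmD8 (adjusted p = 0.0009, 0.00103 and 0.001 for the differences). The DmD8 values of dysf ran from -0.92 to 1.00 with a median of -0.35. Those of CG14606 ran from -0.38 to 0.48 and those of vri from -0.85 to -0.35. CG11893 had 0.21 in Kc and -2.35 in DmD8, a difference of 2.56 ± 0.38 (adjusted p = 0.0185), and its DmD8 values ran from -3.01 to -0.48. Among lower differences, the receptor gene Egfr had 0.22 in Kc and 2.32 in DmD8, with a difference of -2.10 ± 0.22 (adjusted p = 0.00521). CG14275 had -0.30 in Kc and 1.75 in DmD8, and CG42807 had -0.12 in Kc and 1.87 in DmD8 (adjusted p = 0.0317 and 0.0343). CG14275 had a value on 5 Kc arrays, from -1.52 to 0.59, and its DmD8 values ran from 1.59 to 1.94. The DmD8 values of CG42807 ran from -0.34 to 2.74. CG42807 read -1.30 to -0.74 in Cy5 and 0.61 to 0.91 in Cy3 in Kc, and its difference did not pass without Kc arrays 2 and 5. CG18135, Dph1 and sofe were lower in Kc, at -1.05, -0.86 and -1.13, and stood at 0.83, 0.90 and 0.55 in DmD8 (adjusted p = 0.00557, 0.0036 and 0.00348).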

How the data were processed

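Per the labels, RNA was extracted with Trizol, copied from oligo-dT primers, labelled with Cy3 or Cy5 and hybridised to long-oligonucleotide transcriptome arrays, and spots were quantified with Dapple. The deposited table gives a log ratio for each probe on each array, whose log base is not stated: its range fits log2, which was assumed, but a natural log cannot be told apart. How background, normalization and spot filters were handled by the authors is not stated. Channel intensities were not used, and precision is limited by the number of arrays. The 5 DmD8 columns with inhibitor labels repeated those with control labels (71019 pairs of values, 24 not identical, by at most 4.87e-08) and were not used.

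Probes were named from the platform annotation (12658 of 17258 with 1 symbol, 96 with several, 4504 with none); 12012 matched the RefSeq gene table (Release 6 plus ISO1 MT) by gene ID and 107 by accession, and its gene order gave the neighbours. Probes of 1 gene were averaged; 500 genes had several. Features with at least 5 of 6 Kc arrays (4 of 5 for DmD8) were tested. Each of arrays 1 to 3 was averaged with 1 swap under all 6 assignments, or all 36 for Kc and DmD8, and limma 3.58.1 in R 4.3.3 was fitted, with Benjamini-Hochberg adjustment over all features and a threshold of 0.05. Replicates are biological per the labels. In data simulated for the Kc test over 12167 features, 68 of 100 changes of 1 and 3 of 100 of 0.5 were recovered, with 0 false calls. The simulated noise was normal and independent between genes. Arrays paired by number shared a fixed part of it, smaller than the correlation of 0.475 estimated for such pairs in the Kc data. These counts therefore hold for the simulated noise and are not error rates of the test on the real arrays. Named genes were the 16 highest and 16 lowest called with 1 sign on every array, all E(spl), Bearded-type and heat shock members, up to 6 called members of each other list (the highest if none), the 6 highest and 6 lowest differences, and neighbours. A further few list members, such as Hml, Psn and spi, were named after their values were seen. The members and lists were chosen with earlier results of these data known. Figures were drawn with matplotlib 3.10.9.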

Additional observations from a re-analysis of the deposited data

Results flagged for a closer look

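Among 103 named genes with at least 5 Kc arrays, 3 had a single array far from the others by Dixon's test, where chance gives about 1 gene in 20. CG14961 read 1.19 on array 1, against a median of 1.73 over the 6 arrays. Bicra read 2.62 on array 1, against a median of 1.08. CCDC53 read -0.074 on array 4, against a median of -1.15. The cause was not tested.

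The effect of activation differed between Kc and DmD8 by a test of the difference in limma for the 12 genes named by their size. The difference, Kc minus DmD8, was 5.21 for E(spl)mbeta-HLH, 2.93 for E(spl)m3-HLH, 2.87 for CG14606, 2.86 for dysf, 2.82 for vri and 2.56 for CG11893. It was -2.10 for Egfr, -2.05 for CG14275, -1.99 for CG42807, -1.88 for CG18135, -1.76 for Dph1 and -1.68 for sofe. Since the comparison RNA of DmD8 is not settled, the line and the comparison cannot be told apart in these values.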

How the results depend on the processing

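With pairs by number 456 features were higher and 231 lower in activated Kc cells, and with the pairs by number as a random replicate block 334 and 189, of which 464 were among the 556 of the main setting. As 6 separate arrays there were 815 higher and 511 lower, and with at least 3 arrays 617 and 399. Centring the arrays gave 411 and 298 (58% higher, against 66.7%), and scaling them too 360 and 283 (56% higher). Activated RNA in Cy5 alone gave 784 and 987, in Cy3 alone 964 and 467, and with the swaps' sign turned 247 and 292, of which 28 were shared with the main calls. Without arrays 2 and 5 there were 597 and 206, with fewer assignments of swaps to pass than in the main setting. Leaving out 1 array gave 6 to 403 higher and 0 to 173 lower features, with only 2 averages remaining; without array 2 it was 403 and 173, without array 6 it was 41 and 6, and without array 1, 3, 4 or 5 at most 12 and 0. As separate arrays, a setting chosen after seeing the data, leaving out 1 array gave 336 to 686 higher and 186 to 400 lower, lowest without array 5, and 67 of 76 called named genes stayed called each time. The exceptions were Bruce, Gadd45, LanA, LpR2, Ubi-p5E, kay, p53, tefu and tkv. The 15 lost in Cy5 alone were Tollo, bmm, InR, Gadd45, Bruce, tefu, cnc, mam, srp, tkv, LpR2, Stat92E, kek1, kay and foi, and the 8 in Cy3 alone peb, LanA, p53, Dad, Ubi-p5E, Dsor1, TTLL4A and CCDC53. The block also ended the call of tkv, and p53 was lost with at least 3 arrays and after scaling. None of the 76 changed sign in any of these settings but the turned swaps, where signs were not compared. Hsc70-5 and CG42807, not called in the main setting, passed in Cy3 alone with the opposite sign, at -0.42 and 0.76.

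For Kc minus DmD8, 11 separate arrays gave 878 higher and 586 lower, leaving out 1 of them 570 to 830 and 333 to 511, lowest without DmD8 array 4; lower differences fell to 389 without Kc array 5. Centring gave 245 and 159, and leaving out Kc arrays 2 and 5, with fewer pairings to pass, gave 148 and 41. The planned count of promoter motifs was not run, as no promoter sequence was used here.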

Other observations

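Cytochrome P450 genes, which oxidise steroids, fatty acids and foreign compounds, were picked out after their values were seen, by symbols that start with Cyp and a digit. Of 56 tested, 6 were called higher in activated Kc cells and 0 lower, with a median effect of 0.09 for all 56; over all tested features 3.05% were higher and 1.52% lower, with a median of 0.013. Because the family was picked for these values, its count supports nothing further. Cyp4e1 rose by 1.24 ± 0.12 and had 0.87 to 1.59 on the 6 arrays, and Cyp4e2 rose by 1.01 ± 0.11 with 0.83 to 1.17 (limma, adjusted p = 0.00574 and 0.00977). Cyp12d1-p and Cyp12d1-d, which are near-identical copies, rose by 0.80 and 0.76, Cyp6a2 by 0.61 and Cyp6a20 by 0.43. Cyp6a20 was -0.12 on array 6. Gclc, a subunit of the enzyme that starts glutathione synthesis, rose by 1.05.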
